A study of Mus musculus with 10 samples.

Results

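The stroma of the fetal mouse pancreas was examined for 8 chemokine genes, 5 ligands (*Cxcl12*, *Cxcl13*, *Ccl21a*, *Ccl2* and *Cxcl1*) and 3 receptors (*Cxcr4*, *Cxcr5* and *Ccr7*), to find which cell classes made each ligand and which carried its receptor. They were taken by symbol from single-cell RNA-seq matrices that share 27716 genes, and UMIs (unique molecular identifiers, 1 per captured transcript) were found for all 8. Per library, 7 or 8 of the 8 genes had at least 1 UMI. Over the 8 independent libraries *Cxcl12* gave 49721 UMIs, *Cxcl13* 10428, *Ccl2* 9219, *Cxcl1* 3406, *Cxcr4* 1834, *Ccl21a* 731, *Ccr7* 586 and *Cxcr5* 399.

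Chemokines are small secreted proteins that bind G-protein-coupled receptors on migrating cells and guide them along a gradient. CXCL12 signals through CXCR4, holds blood progenitors and lymphocytes in stromal niches, and is also bound by the scavenging receptor ACKR3. CXCL13 acts on CXCR5 and CCL21 on CCR7, the pairs by which stroma, lymphatic endothelium and lymphoid cells meet when lymphoid tissue forms. CCL2 draws monocytes through CCR2, and CXCL1 draws neutrophils through CXCR2.

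Of the libraries, 4 were made from all live cells with the version 1 (v1) droplet kit, from Swiss Webster pancreata of embryonic days E12.5 and E17.5 (1 library each) and of E14.5 (batch 1, batch 2). Another 3, 1 for each of these 3 days, were Swiss Webster cells run with the version 2 (v2) kit after CD140a+ (PDGFRA+) mesenchyme had been sorted away, the E17.5 suspension being loaded in 2 wells that were joined. The last was E14.5 Fev-Cre;ROSA26mTmG, also v2, in which cells that had expressed the *Fev*-driven Cre were GFP+ and the rest tdTomato+, and both fractions were sorted and run. No library was a treatment or a mutant of a chemokine gene. Each was a pool of embryonic pancreata, so the pool was the replicate, embryos could not be told apart, and among the Swiss Webster libraries kit and depletion cannot be told apart either, while Fev-Cre, v2 without depletion, differed in strain and sorting. Mesenchymal cells of the v2 Swiss Webster libraries were those that the depletion left behind, 1303 cells at E12.5, then 62 cells at E14.5 and 60 at E17.5. Dissociation took 10 min for E12.5 tissue, 15 min for E14.5 and 30 min for E17.5, so stage and time in enzyme cannot be told apart.

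The 57982 barcodes with at least 200 genes carried a median of 2950 to 11250 UMIs by library, and haemoglobin transcripts took 0.0128 to 16.7% of the UMIs. Barcode sequences shared by any pair of libraries came to at most 1.79% of the smaller. Clusters were called "-like" from marker genes that held none of the 8 chemokine genes. In mesenchymal-like cells the 7 mesenchymal markers summed to 1233 to 17533 CPM (counts scaled to a common total per class and library) and the 9 macrophage markers to 26.0 to 55.7. The mesenchymal markers were shared by other stromal classes, at 1164 to 14121 CPM in mesothelial-like cells (median 3885, against 5757 in mesenchymal-like cells) and 777 to 4479 CPM in VSM-like cells, and their part in the contrasts between these classes was not tested. The 9 macrophage markers in macrophage-like cells summed to at least 15354 CPM, the 7 endothelial markers in endothelial-like cells to at least 3736 CPM and the 10 lymphoid markers in lymphoid-like cells to at least 968 CPM. Macrophage markers were not absent from lymphoid-like cells, at 690 to 1184 CPM, and endothelial-like cells had as few as 23 cells in a library. Levels below are CPM of the summed UMIs of 1 class in 1 library, given as the mean ± SD over libraries. Since RNA left free in the droplet suspension gives stray UMIs, acinar-like cells are given as the background for shares of cells, each cell being thinned to 2000 UMIs. Cells with fewer than 2000 UMIs were left out of the thinned shares, which therefore describe the deeper cells of each class. Acinar-like cells were often the deeper, for example at 12735.5 UMIs per cell against 4890 in endothelial-like cells at v2 E14.5. How this shifts the background share was not tested.

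**Figure D1:**
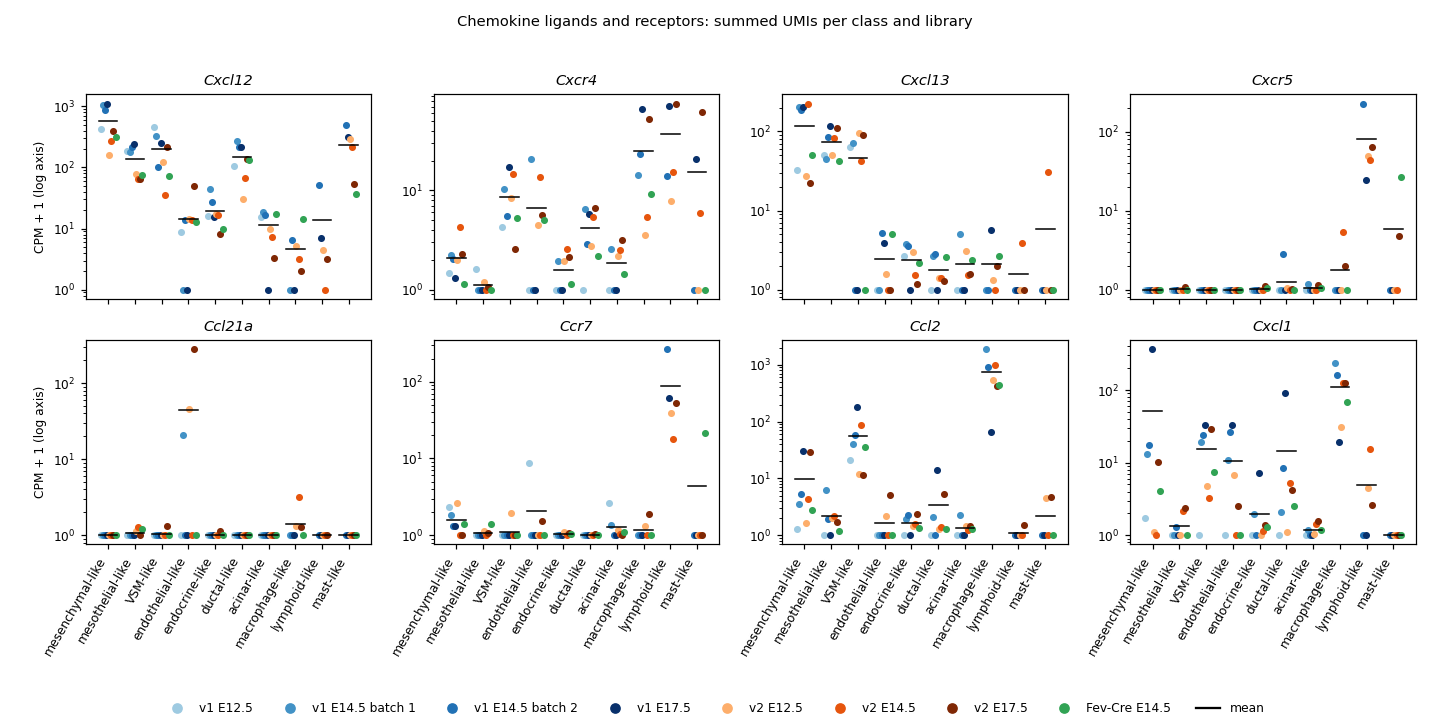
Level of each of the 8 genes by cell class, as CPM + 1 on a log axis, with 1 coloured point per library with at least 20 cells of the class and a bar at their mean. Mesenchymal-like cells lead for *Cxcl12* (575 CPM) and *Cxcl13* (118 CPM), endothelial-like cells for *Ccl21a*, macrophage-like cells for *Ccl2* (751 CPM) and *Cxcl1* (109 CPM), and lymphoid-like cells for *Cxcr5* and *Ccr7* among the 10 classes drawn.

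*Cxcl12* (ENSMUSG00000061353, chr6:117168535-117181367 on the plus strand of GRCm38) was the most abundant of the 8 genes and was mainly a mesenchymal transcript. Mesenchymal-like cells held 420 CPM at v1 E12.5, 1070 and 874 CPM in the v1 E14.5 batches and 1106 CPM at v1 E17.5. The same class held 156, 275 and 389 CPM in the v2 libraries in order of stage, and 312 CPM in Fev-Cre. All 4 v1 values were above all 4 v2 values, whole-tissue cells against the CD140a-depleted or reporter-sorted cells, so the mean of 575 ± 380 CPM (n = 8) spans libraries that differ in kit, in how cells were selected and, for Fev-Cre, in strain. After thinning, a median of 40.6% of mesenchymal-like cells had a *Cxcl12* UMI, against 2.28% of acinar-like cells, whose median depth was the greater in 6 of the 8 libraries.

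Among the classes found in all 8 libraries, vascular smooth muscle (VSM)-like cells, which wrap vessels, followed at 197 ± 144 CPM, then ductal-like cells at 147 ± 82.6 CPM and mesothelial-like cells, the outer lining of the organ, at 137 ± 74.4 CPM. Against mesenchymal-like cells in the same libraries, *Cxcl12* was 4.19-fold lower in mesothelial-like cells (log2 fold −2.07 ± 0.33 SE, adjusted p = 1.24e-06, edgeR with library as a block). It was 2.86-fold lower in VSM-like cells (−1.52 ± 0.34, adjusted p = 0.000969). VSM-like, ductal-like and mesothelial-like cells were neighbours that did not separate (adjusted p = 0.287 and 0.87), and the next step down, to endocrine-like cells at 18.5 CPM, was past the threshold (1.35e-09). Endothelial-like cells were at 13.3 ± 15.1 CPM and macrophage-like cells at 3.72 ± 4.64 CPM, 21.2-fold and 106-fold below mesenchymal-like cells in the fit (adjusted p = 9.34e-13 and 1.32e-15).

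Mesothelial-like levels ran from 175 to 244 CPM in v1 and from 62.8 to 78.4 CPM in v2, without overlap. Within ductal-like cells the range was 105 to 275 CPM in v1 and 29.0 to 139 CPM in v2. *Cxcl12* in the duct lineage was not evenly spread. At v2 E14.5 an epithelial cluster of 235 cells that took no class name was led by *Cxcl12* itself, with *Spp1* and *Fxyd2*, and held 293 CPM (95% Poisson interval 263 to 325), over 4 times the 66.5 CPM of the ductal-like cells of that library.

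A source outside the stroma stood out. Mast-like cells, tissue granulocytes named by *Cpa3*, *Cma1* and *Tpsb2*, held *Cxcl12* at 488, 318, 295, 215, 53.0 and 36.0 CPM in v1 E14.5 batch 2, v1 E17.5, v2 E12.5, v2 E14.5, v2 E17.5 and Fev-Cre. A median of 39.8% of them had a UMI after thinning, close to the 40.6% of mesenchymal-like cells and above the 2.28% of the acinar-like background. Their 7 mesenchymal markers summed to 10.7 to 154 CPM (median 48.6), beside 7.16 to 132 CPM (median 56.9) in acinar-like cells, and the part of stray mesenchymal RNA was not tested. The 12 mast-like cells of v1 E12.5 held 390 CPM and the 18 of v1 E14.5 batch 1 held 15 CPM (1 UMI). Over libraries with 20 to 69 mast-like cells the level thus spread from 36.0 to 488 CPM.

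Within the endocrine lineage *Cxcl12* was highest in *Ngn3*+-like progenitors. *Ngn3*+-like progenitors held 43.5, 86.8 and 91.4 CPM in v1 E12.5 and the v1 E14.5 batches, 23.2, 31 and 79.2 CPM in the 3 v2 stages and 51.7 CPM in Fev-Cre (58.1 ± 27.6 CPM, n = 7). Alpha-like cells were at 10.5 ± 9.63 CPM (n = 7) and beta-like cells at 6.44 ± 5.80 CPM (n = 6), within or below the 10.3 ± 6.86 CPM of acinar-like cells. *Fev*+-like cells, a later stage before hormone expression, were at 32.2 and 10.5 CPM in the v1 E14.5 batches, 1.01 CPM at v2 E12.5 and 7.03 CPM in Fev-Cre, below the *Ngn3*+-like cells in each of the 4, a difference that was not tested. The progenitors were above both hormone-positive classes in every library that had them, 7.93-fold in the fit (log2 fold 2.99 ± 0.27, adjusted p = 3.93e-09). *Cxcl12* alone of the 8 genes had enough UMIs to be tested there, where 23.5% of 9664 genes were called in either direction. The shares of cells were low throughout, with a median of 6.52% of *Ngn3*+-like cells, 0.667% of alpha-like cells and 2.28% of acinar-like cells having a UMI.

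The mesenchyme was split by marker genes that had come from the study's own marker lists for E14.5, of which *Stmn2*, *Barx1* and *Nkx2-5* mesenchyme are described, so these groups are not independent of what the study saw. *Stmn2* mesenchyme, named for a neuronal-type stathmin, held 1891, 1692, 1726 and 3016 CPM of *Cxcl12* in the v1 libraries in order of stage and batch. Its 389 CPM at v2 E17.5 was the value of all mesenchymal-like cells there, so it sets this group against no other. Mesenchyme carrying *Barx1*, a homeobox gene of the foregut wall, held 1249, 1043 and 1106 CPM in the first 3 v1 libraries and 146, 319 and 328 CPM in v2 E12.5, v2 E14.5 and Fev-Cre. Mesenchyme with *Nkx2-5*, a splenic and cardiac factor, was at 72.6 to 771 CPM (n = 5). In each of the first 3 v1 libraries, where all 3 groups had at least 20 cells, *Stmn2* mesenchyme was above the *Barx1* and *Nkx2-5* groups, but in E14.5 batch 1 the mesenchyme that fell in no group was higher, at 1820 CPM.

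**Figure D2:**
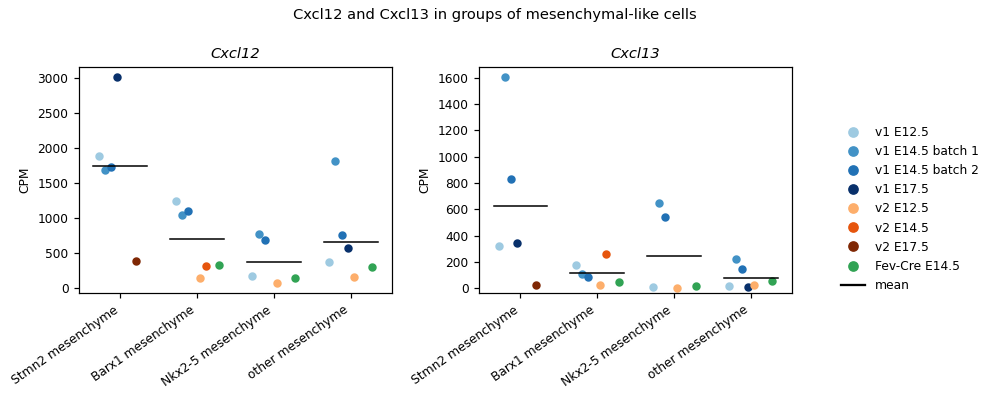
*Cxcl12* and *Cxcl13* in CPM within 3 marker-defined mesenchymal groups and the mesenchyme that fell in no group, with 1 point per library and a bar at the mean. *Stmn2* mesenchyme lies between 1692 and 3016 CPM of *Cxcl12* in the v1 libraries. In v2 E17.5 it lies at 389 CPM, the value of the whole mesenchymal-like class there. *Cxcl13* spreads from 0 to 1603 CPM among the groups.

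*Cxcl13* (ENSMUSG00000023078, chr5:95956951-95961068 on the plus strand) was found mainly in mesenchymal-like, mesothelial-like and VSM-like cells. Mesenchymal-like cells held 31.5, 200, 183 and 205 CPM in the v1 libraries in order of stage and batch, and 26.4, 223 and 21 CPM in the v2 stages and 50.03 CPM in Fev-Cre. Mesothelial-like cells held 49.7, 44.4, 82.8 and 116 CPM in the v1 libraries and 49.4, 80.8, 111 and 41.7 CPM in the v2 libraries, in the same order. These ranges overlapped, and unlike *Cxcl12* in neither class were the v1 and v2 values apart. The difference between them was not past the threshold (log2 fold −0.45 ± 0.41, adjusted p = 0.467), nor was that between VSM-like (45.0 ± 40.6 CPM) and mesenchymal-like cells (−0.89 ± 0.45, adjusted p = 0.190).

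Outside those 3 classes *Cxcl13* was low. Endothelial-like, endocrine-like, macrophage-like, acinar-like and ductal-like cells had means between 0.772 and 1.47 CPM, and the fall from VSM-like to endothelial-like cells was past the threshold (log2 fold 5.93, adjusted p = 1.84e-06). The fit put endothelial-like cells 113-fold, endocrine-like cells 91.1-fold and macrophage-like cells 90.2-fold below mesenchymal-like cells (adjusted p = 8.00e-09, 5.21e-15 and 9.67e-10). Of the UMIs of *Cxcl13*, 4300 were in mesenchymal-like and 3263 in mesothelial-like cells.

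The groups of mesenchyme differed in *Cxcl13*. *Stmn2* mesenchyme held 1603 and 829 CPM of *Cxcl13* in the E14.5 batches, against 319 CPM at v1 E12.5, 341 CPM at v1 E17.5 and 21 CPM at v2 E17.5. The v2 E17.5 value was again that of the whole mesenchymal-like class. *Nkx2-5* mesenchyme held 651 and 542 CPM in those batches but 5.55 CPM at v1 E12.5, 0 at v2 E12.5 and 16.4 CPM in Fev-Cre, although Fev-Cre was also E14.5. *Barx1* mesenchyme stayed between 24.2 and 258 CPM.

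A cluster of 34 cells at v1 E17.5 concentrated 4 of the 5 ligands. It was led by *Cxcl13*, the complement gene *C3*, *Serpina3g*, *Msc*, the cytokine gene *Tnfsf11* (RANKL), *Mfge8* and *Il33*, several of which are known from lymphoid tissue organizer stroma. It held 4120 CPM of *Cxcl12* (95% Poisson interval 3768 to 4495), 3457 CPM of *Cxcl13* (3136 to 3803), 940 CPM of *Cxcl1* (776 to 1128) and 376 CPM of *Ccl2* (275 to 502). *Cxcl12* was found in all 34 cells and *Cxcl13* in 82.4% of them. The cells were few and came from 1 library, and the intervals cover counting error only.

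*Cxcl12* and *Cxcl13* also met in the same cells. In mesenchymal-like cells with a *Cxcl12* UMI, the share that also had *Cxcl13* was 9.32%, 20.8%, 19.6% and 10.5% in the v1 libraries in order of stage and batch, against 2.91%, 6.44%, 7.22% and 2.37% of the cells without *Cxcl12*. In the v2 libraries the shares were 11% against 3.28% at E12.5, 25.0% against 10.0% at E14.5, 13.9% against 0 of the remaining 24 cells at E17.5 and 16.6% against 4.30% in Fev-Cre. The share was thus higher with *Cxcl12* in 8 of 8 libraries. Median depth of the cells with and without *Cxcl12* was 4237 and 4225 UMIs at v1 E12.5 but 6017 and 5464 UMIs in Fev-Cre, and the part of depth was not tested. In mesothelial-like cells the share was higher with *Cxcl12* in 6 of 8 libraries, by 19.9% against 12.4%, 13% against 8.96% and 30.9% against 18.2% in the first 3 v1 libraries, 23% against 17.9% at v2 E12.5, 27.8% against 21% at v2 E14.5 and 29.9% against 17.8% in Fev-Cre. It was not higher at v2 E17.5 (40.5% and 40.9%) or at v1 E17.5 (18.2% of 22 cells and 28.6% of 21).

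*Ccl21a* (ENSMUSG00000094686, chr4:42772860-42773993 on the minus strand) was found mainly in a handful of endothelial-like cells. The matrices also list *Ccl21b*, *Ccl21c* and a further *Ccl21a* entry, near-identical copies that all stand at 0 UMIs, so the count of *Ccl21a* is uncertain as to which copy it came from. Endothelial-like cells held 279 CPM at v2 E17.5, 45.4 CPM at v2 E12.5 and 19.8 CPM (2 UMIs) at v1 E14.5 batch 1, and 0 in the other 5 libraries. The v1 libraries, with 23 to 99 endothelial-like cells each, thus gave 2 UMIs in all. Mesenchymal-like, acinar-like, ductal-like and lymphoid-like cells had 0 UMIs in every library, and pooled endothelial-like cells at 125 CPM were at least 2157-fold higher than pooled mesenchymal-like cells (with 3 UMIs allowed over the mesenchymal-like cells of all libraries). Of those 616 endothelial-like UMIs, 536 came from v2 E17.5, and in comparisons added after the data were seen the bound was 452-fold without that library and 70.9-fold within it.

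Few cells carried that signal. At v2 E17.5, 9 cells with 5 or more UMIs held 539 of 556 UMIs (96.9%), and 1 of them had 212. Of those 9 cells, 8 had at least 3 of the 6 lymphatic endothelial markers (*Lyve1*, *Flt4*, *Reln*, *Mmrn1*, *Prox1* and *Pdpn*) and all 9 had at least 3 of the 7 endothelial markers. At v2 E12.5, 7 such cells held 73 of 86 UMIs (84.9%), 6 of them with at least 3 lymphatic markers. At v2 E14.5 a single cell that was in no class or called a doublet held 81 of 85, with at least 3 lymphatic but not 3 endothelial markers. A v2 E17.5 cluster of 13 cells led by *Ccl21a*, *Cldn5*, *Gja4*, *Ecscr* and *Mmrn1*, 9 of them with a UMI, held 4434 CPM (4067 to 4826). *Ccl21a*, the product that lymphatic vessels display to CCR7+ cells, was thus seen at 5 or more UMIs with at least 3 lymphatic markers in 6, 1 and 8 cells of the v2 stages. How many other endothelial-like cells had at least 3 of these markers was not counted. The markers were not confined to endothelium, with median sums of 115 CPM in endothelial-like, 117 in mesothelial-like, 102 in ductal-like and 753 in macrophage-like cells.

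*Ccl2* (ENSMUSG00000035385, chr11:82035571-82037453 on the plus strand) was mainly a macrophage transcript. Of its 9219 UMIs, 5774 were in macrophage-like cells and 2723 in cells of no class or called doublets. Macrophage-like cells held 1883, 911 and 64.8 CPM in v1 E14.5 batch 1, v1 E14.5 batch 2 and v1 E17.5, and 538, 998 and 421 CPM in the v2 stages and 445 CPM in Fev-Cre (751 ± 590 CPM, n = 7). Macrophage-like and mesenchymal-like ranges did not overlap, since the highest mesenchymal-like value was 28.8 CPM. At v1 E17.5, however, VSM-like cells were above macrophage-like cells, at 178 against 64.8 CPM. The fit gave a 155-fold excess in macrophage-like cells (log2 fold 7.27 ± 0.57, adjusted p = 1.35e-16). Immediate-early genes, known to rise while tissue is dissociated, summed to 5661 to 16534 CPM in macrophage-like cells and were above the 1423 to 9626 CPM of mesenchymal-like cells in each of the 7 libraries, and their part in the *Ccl2* and *Cxcl1* levels was not tested. After thinning, a median of 37.5% of macrophage-like cells had a UMI, against 0.0852% of acinar-like cells. In v1 E14.5 batch 1 the top cluster of 28 cells, led by *Pf4*, *Ccl2*, *C1qc* and *Mrc1*, reached 2749 CPM.

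Among the stromal classes VSM-like cells had the highest mean of *Ccl2*. They held 10.5 to 178 CPM (54.7 ± 55.9 CPM, n = 8), 7.80-fold above mesenchymal-like cells (log2 fold 2.96 ± 0.59, adjusted p = 0.000180), which had 8.66 ± 12.1 CPM. At v2 E17.5 the order was the opposite, with 10.5 CPM in VSM-like and 27.6 CPM in mesenchymal-like cells, and over all libraries 165 UMIs were in VSM-like and 195 in mesenchymal-like cells. Mesothelial-like cells, at 1.15 ± 1.71 CPM, were 4.92-fold lower than mesenchymal-like cells (−2.30 ± 0.74, adjusted p = 0.0133), a call that was lost when v2 E17.5 was left out (−1.64, adjusted p = 0.0779). The difference between endothelial-like and mesenchymal-like cells was not past the threshold (−1.62 ± 1.07, adjusted p = 0.236), and endocrine-like cells were lower (−2.72 ± 0.68, adjusted p = 0.000448).

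*Cxcl1* (ENSMUSG00000029380, chr5:90891241-90893115 on the plus strand) was shared between macrophages and late mesenchyme. Macrophage-like cells held 235, 160 and 18.5 CPM in v1 E14.5 batch 1, v1 E14.5 batch 2 and v1 E17.5, and 29.8, 124 and 126 CPM in the v2 stages and 67.3 CPM in Fev-Cre (109 ± 76.7 CPM). Mesenchymal-like cells held 364 CPM at v1 E17.5, 12.2 and 16.7 CPM in the E14.5 batches, 9.2 CPM at v2 E17.5, 3.01 CPM in Fev-Cre and at most 0.699 CPM in the other 3 libraries. The mesenchymal mean of 50.8 ± 127 CPM therefore rested on v1 E17.5. Macrophage-like cells were 10.6-fold above mesenchymal-like cells (log2 fold 3.41 ± 0.54, adjusted p = 2.42e-07) and 4.43 above on the log2 scale without v1 E17.5, in which the order was the opposite. Without the library block this difference was 1.05 and not past the threshold (adjusted p = 0.333).

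Mesothelial-like cells were low in *Cxcl1*, at 0.353 ± 0.572 CPM and 0 in 5 of 8 libraries, with 19 of their 24 UMIs at v2 E17.5 (1.36 CPM), 18.6-fold below mesenchymal-like cells (log2 fold −4.21 ± 0.73, adjusted p = 5.34e-06). VSM-like cells, at 14.2 ± 12.6 CPM, could not be separated from mesenchymal-like cells (0.07 ± 0.64, adjusted p = 0.979). Epithelium of the same v1 E17.5 library stood out as well, with 88.8 CPM in ductal-like cells against a mean of 13.3 CPM over the 8 libraries.

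For 5 of the 8 genes a promoter was in the RefSeq table on GRCm38.p6, and *Cxcr5*, *Ccr7* and *Ccl2* had no entry. The 250 bases before the start of *Cxcl1* and of its neighbour *Cxcl2*, another CXCR2 ligand that was also a macrophage transcript here, are shown because both hold the letters that the NF-kappa-B family of inflammatory transcription factors is known to bind. Capitals mark the stretch that reads as the kappa B consensus on both strands, and the sequences are chr5:90890995-90891244 and chr5:90903649-90903898, both plus strand.
Cxcl1: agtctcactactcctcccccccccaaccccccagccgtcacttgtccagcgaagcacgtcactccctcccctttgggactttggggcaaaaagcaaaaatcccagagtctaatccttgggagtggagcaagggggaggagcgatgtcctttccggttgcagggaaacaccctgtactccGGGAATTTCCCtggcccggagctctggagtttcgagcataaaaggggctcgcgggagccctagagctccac
Cxcl2: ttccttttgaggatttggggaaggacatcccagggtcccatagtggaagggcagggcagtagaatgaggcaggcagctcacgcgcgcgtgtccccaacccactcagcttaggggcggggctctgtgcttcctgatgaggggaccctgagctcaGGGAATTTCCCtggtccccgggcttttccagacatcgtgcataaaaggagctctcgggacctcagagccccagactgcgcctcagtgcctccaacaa
The stretch began 71 bases before the start in *Cxcl1* and 97 bases before it in *Cxcl2*. The consensus was in 3.90% of 32851 promoters of this length, and these letters were not in the same window of *Cxcl12*, *Cxcl13*, *Ccl21a* or *Cxcr4*. A match describes the letters and shows no binding.

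**Figure D3:**
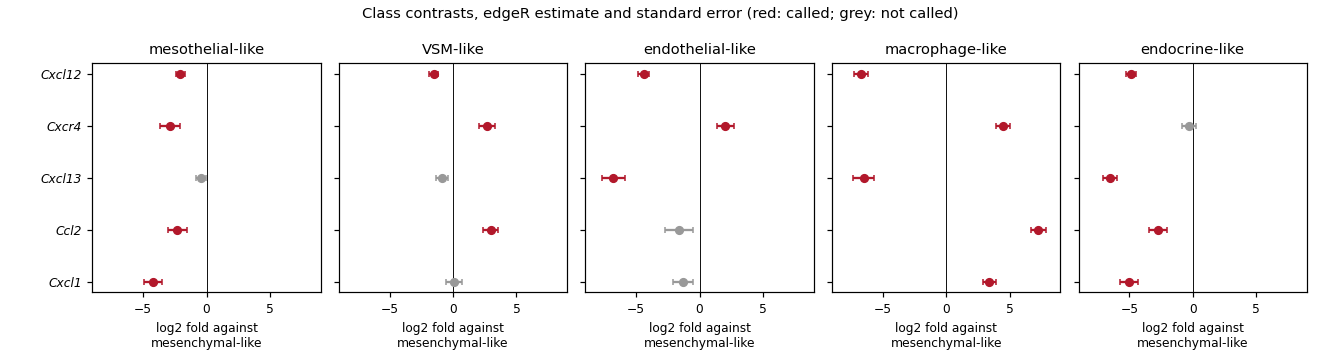
Log2 fold of each tested gene in mesothelial-like, VSM-like, endothelial-like, macrophage-like and endocrine-like cells against mesenchymal-like cells, with the SE as bars, from the fit with library as a block. *Cxcl12* lies below 0 in all 5 classes, from −1.52 in VSM-like to −6.72 in macrophage-like cells, while *Ccl2* lies at 7.27 in macrophage-like cells.

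Of the 8 genes, 5 had enough UMIs for these class contrasts (*Cxcl12*, *Cxcr4*, *Cxcl13*, *Ccl2* and *Cxcl1*), and *Cxcr5*, *Ccl21a* and *Ccr7* did not. The genes called in either direction were 4 of 5 for mesothelial-like cells (15.7% of 12261 genes were called), 3 of 5 for VSM-like cells (8.03%) and 3 of 5 for endothelial-like cells (25.4%). They were 5 of 5 for macrophage-like cells (38.2%) and 4 of 5 for endocrine-like cells (36.1%). A gene passed the low-count filter partly through the class where it was high, and mesenchymal-like cells were the common comparator of all 5 contrasts. Across the 8 classes tested in order, with 7 neighbouring pairs per gene, 14 pairs were past an adjusted p of 0.05 for these 5 genes. With the v2 libraries alone the call fell to 1 gene for mesothelial-like cells and to 0 for VSM-like cells. That fit held fewer libraries, and the share of all genes called in it is not given here.

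*Cxcr4* (ENSMUSG00000045382, chr1:128588199-128592293 on the minus strand), the receptor of CXCL12, had its highest levels in blood-cell classes and low levels in the stromal and epithelial classes. Of its 1834 UMIs, 389 were in macrophage-like, 324 in lymphoid-like, 298 in the far more numerous ductal-like and 149 in acinar-like cells, and 409 were in cells of no class or called doublets. Lymphoid-like cells held 12.9 CPM at v1 E14.5 batch 2, 70.7 CPM at v1 E17.5, and 6.86, 14.3 and 73.9 CPM in the v2 stages. Macrophage-like cells held 13.4, 22.1 and 64.8 CPM in v1 E14.5 batch 1, v1 E14.5 batch 2 and v1 E17.5, and 2.56, 4.43 and 51.1 CPM in the v2 stages and 8.21 CPM in Fev-Cre. In both kits and both classes the E17.5 library was the highest. Neutrophil-like cells held 70.0, 46.8 and 24.1 CPM in v1 E14.5 batch 1, v1 E17.5 and v2 E17.5, and dendritic-like cells 38.4 CPM at v2 E17.5. The macrophage markers summed to 9468 to 53419.5 CPM in those neutrophil-like cells, a range that overlapped the 15354 to 48770 CPM of macrophage-like cells, and their part in the *Cxcr4* level was not tested.

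Among the other classes, VSM-like cells had 7.54 ± 5.19 CPM of *Cxcr4*, endothelial-like cells 5.6 ± 7.13, ductal-like cells 3.16, mesenchymal-like cells 1.1, acinar-like cells 0.864, endocrine-like cells 0.591 and mesothelial-like cells 0.108. Macrophage-like cells were 22.4-fold (log2 fold 4.49 ± 0.53, adjusted p = 1.42e-10), VSM-like cells 6.29-fold (2.65 ± 0.62, adjusted p = 0.00147) and endothelial-like cells 4.08-fold above mesenchymal-like cells (2.03 ± 0.67, adjusted p = 0.0123; with at least 50 cells per sum 1.54, adjusted p = 0.149, and not called in either kit alone, adjusted p = 0.527 in v1 and 0.0853 in v2). Mesothelial-like cells were 7.23-fold lower (−2.85 ± 0.78, adjusted p = 0.00348; without the library block −2.39, adjusted p = 0.0503). Apart from macrophage-like cells, these classes held few *Cxcr4* UMIs over all libraries. There were 32 in 11008 mesenchymal-like, 29 in 846 VSM-like, 21 in 694 endothelial-like and 5 in 6267 mesothelial-like cells. Endocrine-like cells did not differ past the threshold (−0.30 ± 0.57, adjusted p = 0.670), and *Ngn3*+-like cells had at most 3.22 CPM. Thinned shares of cells were 1.60% in VSM-like, 0 in endothelial-like and 0.158% in acinar-like cells by the median, so the endothelial-like share was not above the background share at this depth and the VSM-like share was above it. In endocrine-like cells *Cxcr4* was at or below the acinar-like level in 7 of 8 libraries (1.07 lower on the log2 scale, adjusted p = 0.0465), but above the mesothelial-like level in the fit (2.56 on the log2 scale, adjusted p = 0.00261).

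*Cxcr5* (ENSMUSG00000047880, chr9:44511787-44561877 on the minus strand), the receptor of CXCL13, was found mainly in lymphoid-like cells. Their levels were 226 CPM at v1 E14.5 batch 2 (95% Poisson interval 157 to 314), 23.6 CPM at v1 E17.5 (12.2 to 41.2), and 48.0, 42.9 and 63.8 CPM in the v2 stages. Batch 2 of v1 E14.5 was above the other 4, which overlapped in part, but the 16 lymphoid-like cells of v1 E14.5 batch 1, under the minimum of 20 cells, were close to it at 202 CPM (87.4 to 399). Lymphoid-like cells held 324 of the 399 UMIs, and mast-like cells 11. The 20 mast-like cells of Fev-Cre were at 25.7 CPM (5 UMIs in 4 cells, 10% of cells after thinning), within the lymphoid-like range, the 12 of v1 E12.5 at 62.4 CPM (4 UMIs in 1 cell) and the 11 neutrophil-like cells of v2 E14.5 at 27.3 CPM (2 UMIs). Mesenchymal-like, VSM-like and endothelial-like cells had 0 UMIs in all 8 libraries, and pooled lymphoid-like cells at 62.3 CPM were at least 1075-fold higher than mesenchymal-like cells, at least 131-fold higher than VSM-like cells and at least 102-fold higher than endothelial-like cells (3 UMIs allowed over each group). Without v2 E17.5, which held 240 of the 316 UMIs compared, these bounds were 989-fold, 61.6-fold and 58.4-fold, within v2 E17.5 alone they were 16.2-fold, 67-fold and 40.8-fold, and without v2 E12.5 the endothelial bound was 67.6-fold. A median of 9.46% of lymphoid-like cells and 0 of acinar-like cells had a UMI after thinning.

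*Ccr7* (ENSMUSG00000037944, chr11:99144196-99155077 on the minus strand), the receptor of CCL21, had the same main class. Lymphoid-like cells held 264 CPM at v1 E14.5 batch 2 (190 to 359), 60.9 CPM at v1 E17.5 (41.4 to 86.4), and 37.7, 17.2 and 51.8 CPM in the v2 stages. Dendritic-like cells, antigen-presenting cells known to raise CCR7 when they leave a tissue, held 108 CPM at v2 E17.5 (87.4 to 133), above the 51.8 CPM of lymphoid-like cells there (44.8 to 59.6) by intervals that cover counting error only. At v1 E17.5 the 19 dendritic-like cells held 715 CPM, but from 41 UMIs in 3 cells. Lymphoid-like cells held 285 and dendritic-like cells 135 of the 586 UMIs. Mesenchymal-like cells held 42, at most 1.59 CPM (v2 E12.5, where acinar-like cells were at 0.186 CPM). By the mean, endothelial-like cells were at 1.04 CPM (2 UMIs in all), mesenchymal-like cells at 0.6, acinar-like cells at 0.288, macrophage-like cells at 0.17 and VSM-like cells at 0.115 CPM.

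**Figure D4:**
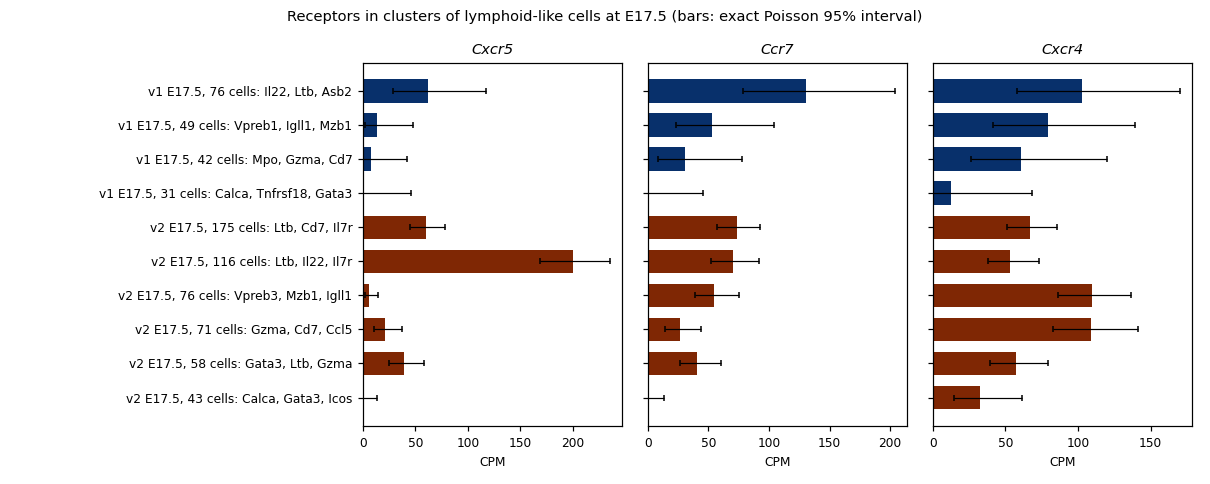
*Cxcr5*, *Ccr7* and *Cxcr4* in CPM (bars from 0) by cluster of lymphoid-like cells at v1 and v2 E17.5, with 95% Poisson intervals as error bars and each cluster's leading genes as its label. At v2 E17.5 *Cxcr5* reaches 200 CPM in the *Ltb* and *Il22* cluster of 116 cells and 5.75 CPM in the *Vpreb3* cluster of 76 cells, where *Cxcr4* is 109 CPM.

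The lymphoid-like cells fell into clusters with different levels of the receptors. At v2 E17.5 a cluster of 116 cells led by *Ltb*, *Il22*, *Il7r*, *Tcf7* and *Lta*, genes of innate lymphoid cells of the tissue-inducer kind, held 200 CPM of *Cxcr5*, 69.9 CPM of *Ccr7* and 53.5 CPM of *Cxcr4*. Of its cells, 67.2% had a *Cxcr5* UMI. A cluster of 175 cells led by *Ltb*, *Cd7*, *Il7r* and the class II genes *H2-Aa* and *Cd74* held 60.1, 73.2 and 66.6 CPM of the 3 in that order. A cluster of 76 cells led by the pre-B genes *Vpreb3*, *Mzb1* and *Igll1* held 5.75 CPM of *Cxcr5*, 54.6 CPM of *Ccr7* and 109 CPM of *Cxcr4*.

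The cytotoxic-gene cluster of 71 cells (*Gzma*, *Nkg7* and *Klrd1*) also held 109 CPM of *Cxcr4*, with 20.7 CPM of *Cxcr5*. In 43 cells led by *Calca*, *Gata3* and *Icos* neither *Cxcr5* nor *Ccr7* had a UMI, and *Cxcr4* was at 32.4 CPM, the lowest of the lymphoid-like clusters of that library, while 58 cells led by *Gata3*, *Ltb*, *Gzma* and *Calca* held 39.1 CPM of *Cxcr5*, 40.7 CPM of *Ccr7* and 57 CPM of *Cxcr4*. The v1 libraries had like clusters, with 34 cells led by *Il22*, *Lgals3* and *Ltb* in E14.5 batch 2 at 246 CPM of *Cxcr5* and 281 CPM of *Ccr7*, and 76 cells led by *Il22*, *Ltb* and *Asb2* at E17.5 at 61.8 CPM of *Cxcr5* and 103 CPM of *Cxcr4*. The pre-B cluster of v1 E17.5, 49 cells led by *Vpreb1*, held 13.3 CPM of *Cxcr5* and 79.6 CPM of *Cxcr4*. In E14.5 batch 1, a cluster of 16 cells led by *Ltb* and *Il22* held 202 CPM of *Cxcr5* (87.4 to 399). At v2 E14.5, 61 cells led by *Il22*, *Ltb* and *Cd52* held 42.9 CPM of *Cxcr5*, with a UMI in 11 of them. Clusters with *Il22* and *Ltb* among their leading genes and with *Cxcr5* were therefore present in all 3 v1 libraries after E12.5 and in the v2 libraries of E14.5 and E17.5. Among lymphoid-like cells of v2 E17.5, 33.1% of those with *Cxcr5* also had *Ccr7*, against 17.6% of those without. The shares were 52.9% and 47.4% in v1 E14.5 batch 2, 0 of 11 cells and 8.02% at v1 E17.5, 16.7% and 23.3% at v2 E12.5, and 9.09% and 10% at v2 E14.5, so the share was higher with *Cxcr5* in 2 of 5 libraries.

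Set against stage, the ligands of mesenchymal-like cells were higher at E17.5 than at E12.5 in both kits for 3 of 4 genes. *Cxcl12* went from 420 to 1106 CPM in v1 and from 156 to 389 CPM in v2 (3.04-fold, log2 fold 1.61 ± 0.30, adjusted p = 0.00629, edgeR with kit as a term over the 7 Swiss Webster libraries). The v2 E17.5 level was also that of the *Stmn2* group, while v2 E12.5 had no *Stmn2* group of at least 20 cells. The part of this difference in mesenchymal groups was not tested. *Ccl2* went from 0.311 to 28.8 CPM in v1 and from 0.613 to 27.6 CPM in v2 (73.8-fold, 6.20 ± 0.57, adjusted p = 0.000136). The v2 E17.5 value rested on 21 UMIs, and its wells gave 6.66 CPM (3 UMIs) and 58 CPM (18 UMIs). *Cxcl1* went from 0.699 to 364 CPM in v1 and from 0.123 (1 UMI) to 9.2 CPM in v2 (8.96 ± 0.60, adjusted p = 2.69e-05). Its v2 E17.5 value was also thin, with 6.66 CPM (3 UMIs) and 12.9 CPM (4 UMIs) in the wells and a UMI in 5 of 60 cells. Of 11596 genes, 9.46% rose and 3.54% fell, beside 3 of the 4 chemokine genes tested that rose and 0 that fell. *Ccl2* and *Cxcl1*, near 0 at E12.5, passed the low-count filter through the later libraries and could hardly have been called as falling. The count of 3 of 4 was thus partly fixed by the filter.

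The size of the *Cxcl1* rise depended on v1 E17.5, without which it was 6.97 on the log2 scale (adjusted p = 0.00395), and on v1 E12.5, without which it was 6.12 (adjusted p = 0.00502). The *Cxcl12* call was lost without v1 E12.5 (1.47, adjusted p = 0.118) and without v2 E12.5 (1.71, adjusted p = 0.0616). *Cxcl13* was 2.04 ± 0.66 higher on the log2 scale at E17.5, which was not past the threshold (adjusted p = 0.0729). It went from 31.5 to 205 CPM in v1 but from 26.4 to 21 CPM in v2, where E14.5 was the peak at 223 CPM. The v1 E17.5 value includes the small *Cxcl13*-led cluster described above.

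Beside these values stood immediate-early genes, the list of 11 used above, which includes *Fos*, *Jun*, *Egr1*, *Atf3* and *Socs3*. In mesenchymal-like cells they summed to 1198 CPM at v1 E12.5, 5312 and 6754 CPM in the E14.5 batches and 9626 CPM at v1 E17.5, and to 1423, 2923 and 1550 CPM in the v2 stages. The v1 E17.5 mesenchymal clusters high in *Cxcl1* included those led by *Has1*, *Cxcl1* and *Socs3* (71 cells, 1294 CPM of *Cxcl1*) and by *Cxcl1*, *Socs3* and *Socs1* (123 cells, 889 CPM). The small *Cxcl13*-led cluster described above, for which *Socs3* was not among the leading genes named, lay between them in *Cxcl1*. The part of dissociation in the stage differences was not tested.

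**Figure D5:**
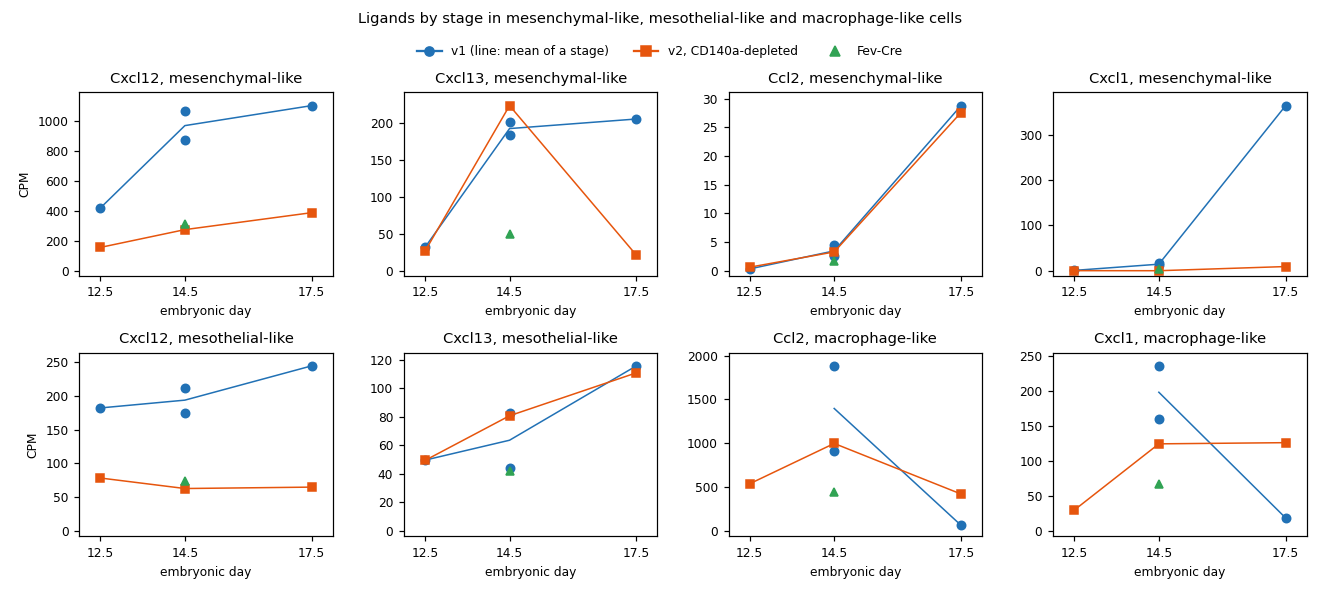
CPM by embryonic day on the x axis, 1 point per library, with lines through the stage means of v1 and of v2 and Fev-Cre as a triangle, for mesenchymal-like cells (top) and for mesothelial-like and macrophage-like cells (bottom). Mesenchymal *Cxcl12* rises to 1106 CPM in v1 and 389 CPM in v2, mesothelial *Cxcl13* rises in both kits to 116 and 111 CPM, and mesenchymal *Cxcl1* reaches 364 CPM in v1 E17.5 alone.

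In mesothelial-like cells *Cxcl13* rose with stage and *Cxcl12* was not called. *Cxcl13* went from 49.7 to 116 CPM in v1 and from 49.4 to 111 CPM in v2 (2.34-fold, log2 fold 1.23 ± 0.33, adjusted p = 0.0150), and the wells of v2 E17.5 gave 107 and 115 CPM. The immediate-early sum of the class went from 561 to 6816 CPM in v1 and from 494 to 4340 CPM in v2, and its part was not tested. *Cxcl12* was 182 and 244 CPM in v1 and 78.4 and 64.9 CPM in v2 (0.09 ± 0.27, adjusted p = 0.854). The *Cxcl13* call was lost without v1 E17.5 (1.20, adjusted p = 0.0510), v2 E12.5 (1.12, adjusted p = 0.221) or v2 E17.5 (1.36, adjusted p = 0.222), and with no kit term. It was the single call among the 2 genes tested, where 11.2% of 11751 genes rose. At v2 E17.5 the richest mesothelial-like cluster, 117 cells led by *Osr1*, *Igfbp2*, *Cxcl13* and *Enpp2*, held 318 CPM (285 to 353) with a *Cxcl13* UMI in 69.2% of cells.

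In endothelial-like, macrophage-like and endocrine-like cells 0 of the chemokine genes tested were called between E17.5 and E12.5 with edgeR, and 0 with DESeq2. In endothelial-like cells the 1 gene tested, *Ccl21a*, was at an unadjusted p of 0.00286 (2.54 ± 0.71, adjusted p = 0.0661), where 3.36% of 4259 genes were called. In macrophage-like cells 2 of 3 were at an unadjusted p below 0.05, *Cxcr4* (4.19 ± 0.93, adjusted p = 0.0824) and *Cxcl1* (1.71 ± 0.72, adjusted p = 0.858), where 0.615% of 5855 genes were called. *Ccl2* was at −0.83 ± 0.79 there (adjusted p = 1.00). *Cxcl12* in endocrine-like cells was at −0.58 ± 0.40 (adjusted p = 0.473), with 0 genes of the 1 tested at an unadjusted p below 0.05, where 6.92% of 10244 genes were called. Macrophage-like cells had only 1 library at E12.5, assumed to vary like the others. On data simulated for that design 17% of genes given a true 4-fold change and 0% of those given a 2-fold change were past the threshold, so a count of 0 there says little.

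The other chemokine genes were followed through a fixed list of 35 ligands, 16 receptors and 5 atypical receptors. In macrophage-like cells 11 of the 17 ligands tested were higher and 2 lower than in mesenchymal-like cells, and 4 of 4 receptors were higher. Of all genes 14.7% were higher and 23.5% lower, and the median log2 fold was 6.22 for the ligands against −0.18 over all genes. Only 17 of the 35 ligands and 4 of the 16 receptors passed the low-count filter, partly through the class where they were high. Macrophage-like cells were the only blood-cell class in that fit, so these counts were partly fixed by the filter. *Ccl3*, a CC ligand that draws monocytes, was at 756 ± 161 CPM, *Cxcl2* at 1167 ± 536 CPM and *Ccr2*, the receptor of CCL2, at 212 ± 239 CPM. Macrophage-like cells therefore held both *Ccl2* and *Ccr2*, and *Ccr2* was at 0 UMIs in endothelial-like cells and 0.238 CPM in mesenchymal-like cells.

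In VSM-like cells *Ccl11* (eotaxin, which draws eosinophils) was 10.0-fold higher than in mesenchymal-like cells (log2 fold 3.32 ± 0.38, adjusted p = 3.33e-09), at 102 ± 121 against 13.4 ± 18.9 CPM. In this class 2 of 17 ligands (*Ccl11* and *Ccl6*) were higher and 1 (*Ccl27a*) lower, where 3.12% of all genes were higher and 4.92% lower. *Ackr3*, the scavenging receptor that binds CXCL12, was 7.96-fold lower in VSM-like than in mesenchymal-like cells (−2.99 ± 0.48, adjusted p = 5.25e-06) and 2.08-fold higher in mesothelial-like cells (1.06 ± 0.28, adjusted p = 0.00214). Its levels were 51.3 ± 46.2 CPM in mesothelial-like, 21 ± 13.6 in mesenchymal-like, 19.9 ± 20.4 in endothelial-like and 1.60 ± 1.66 CPM in VSM-like cells. *Ackr3* was thus above *Cxcr4* by mean CPM in mesenchymal-like, mesothelial-like and endothelial-like cells, on counts of 3′ tags that carry no length term.

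In mesothelial-like cells 2 of 17 ligands were higher and 2 lower (8.96% and 6.75% of all genes), the median log2 fold being −0.35 against −0.05 over all genes. *Cxcl14*, a ligand of skin and mucosa, was 15.5-fold higher (3.95 ± 0.58, adjusted p = 1.34e-07) at 13 ± 7.03 CPM, and *Ccl11* 16.2-fold lower. In endothelial-like cells 1 of 17 was higher, *Cx3cl1* (fractalkine, a membrane-bound ligand for monocytes), 11-fold (3.46 ± 0.66, adjusted p = 1.79e-05), and 4 were lower, where 9.35% of all genes were higher and 16.1% lower. *Cx3cl1* was also 15.4-fold higher in endocrine-like cells, and 62.3-fold lower in *Ngn3*+-like than in hormone-positive cells (−5.96 ± 0.67, adjusted p = 1.24e-07), the opposite of *Cxcl12*. By stage, 3 of 7 ligands tested in mesenchymal-like cells were higher at E17.5 and 0 were lower, where 9.46% of all genes were higher and 3.54% lower: *Ccl11* (6.76 ± 0.76, adjusted p = 0.000400), *Ccl7* (5.85 ± 1.02, adjusted p = 0.00482) and *Cxcl16* (3.41 ± 0.70, adjusted p = 0.0108). The low-count filter applied here too, and its part in this count was not tested.

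The genes whose levels went most like each chemokine gene were ranked by Pearson's r of log2 CPM over 78 sums of 12 classes in 8 libraries, sums that share libraries and depth. *Cxcl12* was most like *Adamtsl1* (r = 0.809), *Lpar1* and *P4ha2*, and *Cxcl13* most like *Osr1* (r = 0.835), *Col14a1* and *Hoxb5os*. *Ccl2* was most like *Ccl7* (r = 0.833), its neighbour among the CC ligands, then *Pf4* and *Slc11a1*, and *Cxcl1* was most like *Ccl7* (r = 0.713), *Cbr3* and *Ccl2* (r = 0.696). *Ccr7* was most like *Cxcr6* (r = 0.901), *Ccr6* and *Blk*, genes of lymphocytes, and *Cxcr4* most like *Tsc22d3* (r = 0.711), *Capg* and *AB124611*. For *Ccl21a* (*Hsf3*, r = 0.816) the likeness rested on the few sums with a UMI, and *Cxcr5* had under 500 UMIs and was not ranked.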

How the data were processed

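Single-cell RNA-seq of pooled mouse embryonic pancreata was analysed from the UMI counts per gene and cell that the authors deposited as 10x matrices. Per the labels and the submitters' processing notes, reads of the v1 libraries were processed with Cell Ranger 1.1 and those of the v2 libraries with Cell Ranger 2.1 on mm10. For Fev-Cre the matrix aligned with the reporter sequences was used, and the other matrix of that library was not used here. The 2 wells of v2 E17.5 came from the same suspension and were summed, which left 8 libraries. GENCODE M21 gave gene positions on GRCm38.

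Barcodes with at least 200 genes were kept and clustered within each library in Python 3.11.15, first into compartments and then within each compartment. The settings were 2000 variable genes without chemokine genes, 30 components (up to 20 in the second round), up to 20 neighbours and Leiden resolution 2 with leidenalg 0.10.2. Clusters were named from marker genes. Cells that carried markers of 2 separate compartments were taken for doublets and left out, 2.39 to 14.3% of cells by library, and Scrublet was an alternative, although it marked only 0.065% of v1 E12.5 cells. Cells were grouped by the same matrices that were then compared.

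Counts were summed per class and library (at least 20 cells) and tested with edgeR 4.0.16 in R 4.3.3 (quasi-likelihood, TMM scaling, filterByExpr), with library as a block since classes of a library shared a suspension, and for stage with kit as a term. Calls needed an adjusted p (Benjamini-Hochberg over all genes tested) below 0.05 and at least a 2-fold change. Intervals on counts are exact Poisson at 95%, and intervals and floors (3 UMIs) cover counting error only. DESeq2 1.42.0, other scaling, filters and clusterings, and leaving out each library were alternatives. The scripts were tested on simulated data. Correlations used log2 of CPM plus 1.

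The 8 genes and all lists were chosen with earlier results of these data known. The genes named are the 8, the 3 genes most like each of those with at least 500 UMIs, and up to 3 of the pathway list per direction and comparison. Clusters were picked for description after their levels were seen, as was the immediate-early list, and the mesenchymal group markers came from the study's own marker lists; 1 further mesenchymal group is not reported here.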

Additional observations from a re-analysis of the deposited data

Results flagged for a closer look

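Within 32 groups of 5 to 8 libraries, 10 had a library whose gap to the rest was above Dixon's 95% critical value. The rate of 1 in 20 by chance holds for independent, normally spread replicates. These libraries differed in stage, kit and selection, and *Stmn2* mesenchyme lies within mesenchymal-like cells, so 10 of 32 cannot be set against that rate. Of the 10, 4 were v1 E17.5. *Cxcl1* was 364 CPM there in mesenchymal-like cells, 174 CPM in *Stmn2* mesenchyme and 88.8 CPM in ductal-like cells, and *Ccl2* was 178 CPM in VSM-like cells. The immediate-early sum of v1 E17.5 was 9626 CPM in mesenchymal-like and 11221 CPM in ductal-like cells, the highest of the libraries in each. In VSM-like cells it was 3714 CPM at v1 E17.5, against 5226 and 5784 CPM in the v1 E14.5 batches. Its part in these levels was not tested.

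Lymphoid-like cells of v1 E14.5 batch 2, 36 cells, stood apart among libraries with at least 20 such cells for *Cxcr5* (226 CPM, beside 202 CPM in 16 cells of batch 1), *Ccr7* (264 CPM) and *Cxcl12* (51.6 CPM, from 8 UMIs). Of those cells, 34 belonged to the *Il22*-led cluster, at 28.1 CPM of *Cxcl12*, and 4 of the 8 *Cxcl12* UMIs came from 1 of the other 2 cells. At v2 E17.5 *Cxcr4* was 60.5 CPM in mast-like cells, and endothelial-like cells held 279 CPM of *Ccl21a* and 47.9 CPM of *Cxcl12*. That *Cxcl12* lay largely in 16 cells led by *Gja4* and *Sox17*, genes of arterial endothelium, at 812 CPM (95% Poisson interval 646 to 1008).

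*Cxcl12* at E17.5 minus E12.5 was 686 CPM in v1 and 233 CPM in v2 in mesenchymal-like cells, and −0.69 CPM in v1 and −9.37 CPM in v2 in endocrine-like cells, where the change was not past the threshold (adjusted p = 0.473). The opposite signs put it here, and the difference between the classes was not tested.

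Some clusters that took no class name held chemokine transcripts above the acinar-like level. A Fev-Cre cluster of 72 cells led by *Acta2*, *Stmn2* and *Cxcl13* held 904 CPM of *Cxcl12* and 622 CPM of *Cxcl13*. At v1 E17.5, 21 cells led by the basophil genes *Mcpt8* and *Prss34* held 242 CPM of *Cxcr4*, and at v2 E14.5, 65 cells led by *Cd74*, *Lyz2* and *Mpo* held 466 CPM of *Ccl2*.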

How the results depend on the processing

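No fold called in the main fits turned direction under any alternative tried, and folds not called there were not checked for this. The number of the chemokine genes called for mesothelial-like cells went from 4 to 2 with the v1 libraries alone and to 1 with the v2 libraries alone, and for VSM-like cells from 3 to 0 with the v2 libraries alone. Past an adjusted p of 0.05 were 14 neighbouring pairs of classes, against 7 with the v1 libraries alone and 5 with the v2 libraries alone. By stage, mesothelial-like cells went from 1 call to 2 with no low-count filter, and to 0 with at least 50 cells per sum and with no kit term. Endothelial-like cells went from 0 to 1 with no filter, and macrophage-like cells from 0 to 1 with RLE size factors, with no filter and with Scrublet. Fewer libraries were in the single-kit fits, and elsewhere the cause was not tested. The share of all genes called under each alternative, or with a library left out, is not given here. The counts therefore cannot be read as particular to the chemokine genes.

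Leaving out each library in turn gave 3 to 4 calls for mesothelial-like, VSM-like and endothelial-like cells, 5 for macrophage-like and 4 for endocrine-like cells, 1 for *Ngn3*+-like cells, and 11 to 14 neighbouring pairs. By stage it gave 2 to 4 calls in mesenchymal-like, 0 to 1 in mesothelial-like, 0 to 1 in endothelial-like, 0 to 2 in macrophage-like and 0 in endocrine-like cells. The endothelial-like call, *Ccl21a*, came without v1 E12.5, v1 E14.5 batch 1, v1 E17.5 or v2 E14.5, and calls in macrophage-like cells came without any of the later v1 libraries. The stage fold of *Cxcl1* in mesenchymal-like cells ran from 6.12 to 9.24 on the log2 scale.

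Without the replicate block, the calls numbered 3 for mesothelial-like, 3 for VSM-like, 4 for endothelial-like, 4 for macrophage-like and 4 for endocrine-like cells, and *Cxcr4* in mesothelial-like cells (adjusted p = 0.0503) and *Cxcl1* in macrophage-like cells (adjusted p = 0.333) were the calls lost. With all cells and all their UMIs in place of thinned cells, a median of 63.3% of mesenchymal-like cells had a *Cxcl12* UMI. *Cxcr4* in endothelial-like cells was not called with at least 50 cells per sum (1.54, adjusted p = 0.149), and *Cxcl12* by stage was not called in mesenchymal-like cells without the kit term (adjusted p = 0.215). Stage in endothelial-like and macrophage-like cells could not be fitted with at least 50 cells per sum, nor in macrophage-like cells without v2 E12.5. *Cxcr5*, *Ccl21a* and *Ccr7* did not pass the low-count filter of the class fit, which held no lymphoid-like sums, and depth limited classes of 20 to 40 cells, in which 1 UMI was worth several CPM.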
